A study of Rattus norvegicus with 30 samples.

Results

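The step from day 4 to day 6 of serum starvation was examined in REF cells, a line of rat embryonic fibroblasts. It was defined by its samples, 3 libraries of cells kept without serum for 4 days and 3 libraries of cells kept without serum for 6 days, 6 of the 30 RNA-sequencing libraries of the series, and it was read across every gene of the table. The series runs from unstarved cells to 16 days without serum in 10 groups of 3 biological replicates, and its title concerns the depth of quiescence and the lysosome. Per the labels every group came from the same line with no transformation, no other agent is named, and days 4 and 6 are set apart by the length of starvation. The labels do not say whether the replicates were grown in parallel, and REF is a single line. Levels are FPKM, which count sequenced fragments relative to transcript length and to the size of the library. A change is the difference of the mean log2(FPKM + 1) of day 6 and day 4 with the standard error of the fit, a scale on which changes of genes near 0 are understated. A gene is said to have risen or fallen when its limma p, adjusted over the 8940 genes tested of 17353 in the table, was below 0.05.

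Fibroblasts deprived of the growth factors of serum leave the division cycle and enter quiescence, a resting state from which serum can bring them back. The longer they are held there, the later they return, which is what is meant by deeper quiescence. During arrest the genes of replication and mitosis are silenced by repressor complexes, and the cell changes how it makes lipids, burns sugar, holds on to its substrate and degrades its own contents in lysosomes.

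The summed FPKM of the 6 libraries ran from 599600 to 753992, between 8745 and 8798 genes stood at 1 FPKM or more, and the read depth is unknown because the table holds no counts. Correlations of log2 values across genes were 0.9836 to 0.9895 within a day (6 pairs) and 0.9774 to 0.9846 between days (9 pairs). Day 4 replicate 3 stood apart in its short RNA genes, which held 9.01% of its FPKM against 0.317% at the lowest, and Mir3120 alone was listed there at 65380 FPKM. Day 4 replicate 2 stood apart in mitosis genes, as described with them.

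From day 4 to day 6, 303 genes rose (3.39% of those tested) and 583 fell (6.52%), and the median change of all genes was 0.01. Changes were small: 18 genes rose (0.201%) and 81 fell (0.906%) by at least 2-fold. The split between directions depended on the scaling of the libraries. When every library was instead brought to the same FPKM total (called sum scaling here), which moved the median of all genes to 0.10, 501 genes rose and 300 fell, so that 62.5% of the calls were rises against 34.2% on the deposited scale. With short RNA genes left out and the rest rescaled, 434 rose and 393 fell. Leaving out 1 library at a time gave 203 to 241 rises, the fewest (203) without day 6 replicate 2, and 407 to 508 falls. The medians given below for the lists of mitosis, DNA replication, cholesterol, fatty acid, actin, hypoxia-type, glycolysis, lysosomal, vacuolar ATPase, autophagy and ATF4 genes kept their sign under all 4 rescalings and without any 1 of the 6 libraries.

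**Figure D1:**
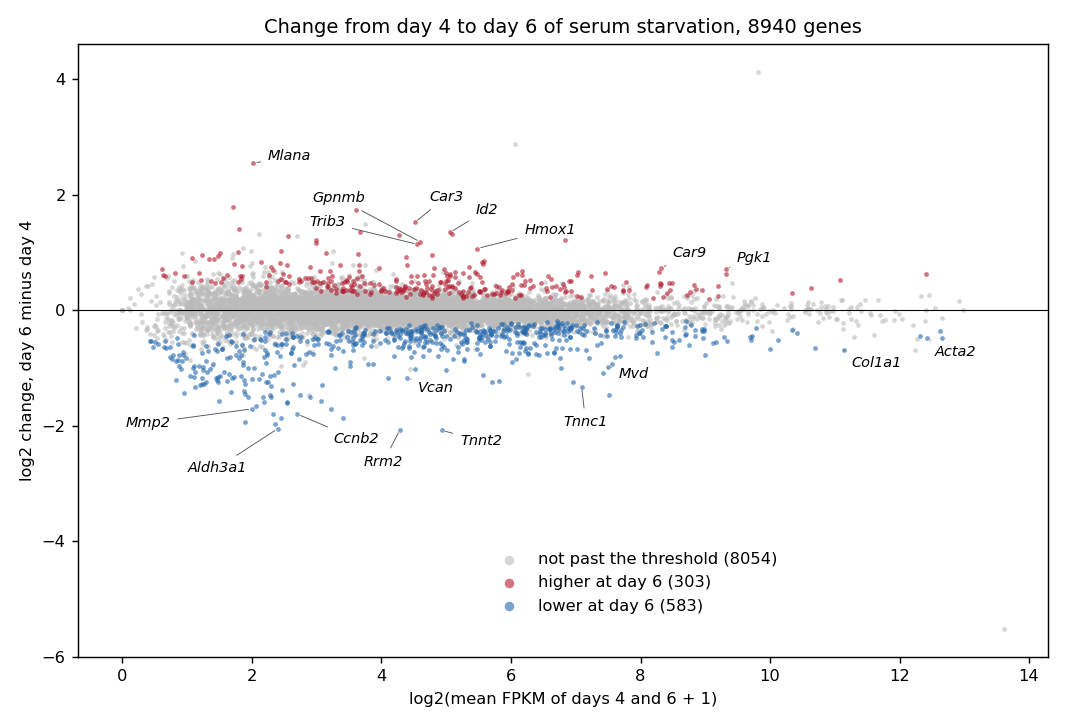
Change from day 4 to day 6 (log2, y axis) of the 8940 genes tested against their mean level at the 2 days (log2(FPKM + 1), x axis), with 303 risen genes in red, 583 fallen genes in blue and all others in grey. The steepest falls, such as Tnnt2 (-2.08) and Rrm2 (-2.07), lay further from 0 than most rises, of which Mlana (2.54) was the steepest called, and the grey points furthest from 0 include the short RNA gene Mir3120 (-5.52).

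Genes of mitosis fell together. Of 40 tested, 36 fell and 0 rose, with a median change of -1.18, and in 38 of the 40 every day 6 library lay below every day 4 library (13.4% of all genes did). Cyclin B2 (Ccnb2), which drives entry into mitosis with the kinase Cdk1, stood at 8.61, 13.3 and 5.51 FPKM in the day 4 libraries and at 2.82, 1.5 and 1.23 at day 6. Cdk1 itself stood at 13.7, 24.5 and 9.04 FPKM and then at 4.79, 4.1 and 1.62. For both genes replicate 2 was the highest day 4 library and the days did not overlap. Ccnb2 fell by 1.80 ± 0.29 (adjusted p = 0.000116) and Cdk1 by 1.87 ± 0.34 (adjusted p = 0.000467).

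Other mitotic genes fell as well, and the changes in the list ran from -1.97 to -0.25. Ube2c, which charges the anaphase-promoting complex with ubiquitin, was at 13.5, 19.4 and 7.18 FPKM at day 4 and at 2.66, 4.49 and 2.44 at day 6. The spindle assembly factor Tpx2 went from 9.13, 19.2 and 6.88 FPKM to 3.27, 2.81 and 2.77. Prc1, which bundles the microtubules of the midzone, went from 7.62, 17.2 and 5.89 FPKM to 2.85, 3.19 and 1.93. The order of the day 4 libraries was the same in these genes as in Cdk1. Their changes were -1.71 ± 0.35, -1.57 ± 0.21 and -1.51 ± 0.25. The kinesin Kif20a fell by 1.46 ± 0.23, the kinetochore genes Ndc80 and Nuf2 by 1.65 ± 0.23 and 1.46 ± 0.20, and Foxm1, the transcription factor that drives mitotic genes, by 1.10 ± 0.16. The proliferation marker Mki67 was at 2.07, 5.05 and 1.66 FPKM at day 4 and at 0.738, 0.546 and 0.473 at day 6 (adjusted p = 0.000361). Its call was lost in a fit of the 6 libraries alone (adjusted p = 0.0598). Cyclin A2 (Ccna2) was at 4.84, 9.31 and 3.19 FPKM and then at 1.46, 1.07 and 1.19 (adjusted p = 0.000187).

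Day 4 replicate 2 carried more mitotic transcript than its partners. The summed FPKM of the list was 176.5, 341.6 and 140.3 in the day 4 libraries against 73.31, 66.49 and 57.93 at day 6, and each day 2 library (110.7 to 122.4) lay below each of day 4. Without day 4 replicate 2, 33 of 40 mitosis genes still fell, with a median change of -0.91. Fewer dividing cells and less mitotic RNA per dividing cell cannot be told apart in these bulk libraries.

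The promoters of mitotic genes are known to share paired CCAAT boxes, read by the factor NF-Y, and a cell cycle genes homology region (CHR), through which the DREAM complex silences them in resting cells. RefSeq promoters (250 bases before to 50 after the start, build GRCr8) were found for 7074 of the 8940 genes and were searched on both strands. The letters CCAAT occurred in 24 of 31 mitosis promoters (77.4%) against 2740 of all 7074 (38.7%), and the CHR letters TTTGAA in 23 of 31 (74.2%) against 820 (11.6%). In the DNA replication list CHR letters occurred in 4 of 36 promoters (11.1%) and CCAAT in 21 (58.3%). Of the promoters of all genes that fell, 46.2% held CCAAT and 17.6% CHR letters, against 41.4% and 12.7% for all that rose. Lists group genes by known function or regulator, so the share in a list does not tie a motif to the step. A match is a description of the sequence and was not tested as a site. The promoters of 3 mitosis genes that fell are shown 5′ to 3′ on the strand of the gene because they hold both kinds of match. Capitals mark CCAAT or TTTGAA, or the reverse complement of either, and the sequences span chr8:79981609-79981908 (minus strand), chr20:19265043-19265342 (plus) and chr1:143659231-143659530 (plus).
Ccnb2: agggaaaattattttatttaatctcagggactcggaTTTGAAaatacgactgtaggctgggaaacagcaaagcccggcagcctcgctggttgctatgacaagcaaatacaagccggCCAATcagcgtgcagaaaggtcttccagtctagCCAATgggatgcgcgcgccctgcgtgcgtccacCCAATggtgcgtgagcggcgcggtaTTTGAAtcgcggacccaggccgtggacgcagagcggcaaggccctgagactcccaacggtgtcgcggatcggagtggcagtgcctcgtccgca
Cdk1: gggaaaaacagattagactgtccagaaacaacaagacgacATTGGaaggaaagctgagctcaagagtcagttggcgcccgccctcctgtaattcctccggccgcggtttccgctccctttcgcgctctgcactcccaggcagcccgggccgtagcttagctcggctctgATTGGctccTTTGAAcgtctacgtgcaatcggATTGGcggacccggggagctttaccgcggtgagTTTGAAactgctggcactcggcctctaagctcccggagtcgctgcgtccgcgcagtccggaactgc
Prc1: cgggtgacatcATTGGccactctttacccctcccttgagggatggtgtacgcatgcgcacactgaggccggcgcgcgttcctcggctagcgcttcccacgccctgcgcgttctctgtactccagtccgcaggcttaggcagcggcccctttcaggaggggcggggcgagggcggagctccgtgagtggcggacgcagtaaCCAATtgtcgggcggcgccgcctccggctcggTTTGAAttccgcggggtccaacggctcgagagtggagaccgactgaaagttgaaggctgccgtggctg
Ccnb2 holds 3 CCAAT and 2 CHR matches, Cdk1 3 and 2, and Prc1 2 and 1.

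Genes of DNA replication fell with them, to a smaller degree. Of 47 tested, 18 fell and 0 rose, with a median change of -0.33. Rrm2, the subunit of ribonucleotide reductase that is made for S phase, was at 23.4, 50.9 and 18.6 FPKM at day 4 and at 6.87, 6.67 and 4.57 at day 6 (change -2.07 ± 0.29, adjusted p = 1.73e-05). Thymidine kinase (Tk1) went from 10.5, 16.3 and 9.33 FPKM to 6.09, 5.06 and 4.89 (adjusted p = 6.27e-06). The helicase subunit Mcm5 fell by 1.25 ± 0.20 and the GINS subunit Gins1 by 1.14 ± 0.20. In each of these 4 genes the days did not overlap. The count of falls depended on 1 library and on the scaling, and was 9 without day 4 replicate 2 and 10 under sum scaling. The clamp Pcna, which also serves DNA repair, was at 72.2, 77.7 and 59.1 FPKM and then at 64.2, 67.7 and 61.4, and the S-phase factor E2f1 at 7.9, 9.16 and 6.04 and then at 6.81, 5.93 and 6.18. Both sets of values overlapped and neither passed the test (adjusted p = 0.586 and 0.367). Among chromatin genes 8 of 23 fell and 0 rose, a count of 3 without day 4 replicate 2, 5 without day 6 replicate 1 or replicate 3, and 2 under sum scaling. The histone chaperone Asf1b fell from 5.03, 9.29 and 4.65 FPKM to 1.71, 1.63 and 1.18 under each of these settings.

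Regulators that sit above the cycle were called at near the share of all genes. Of 16 tested CDK inhibitors, D cyclins and pocket proteins, 1 fell (6.25%, against 6.52% of all genes) and 0 rose (against 3.39%). The fall was that of Ccnd3, by 0.34 ± 0.06, a call that was lost under sum scaling (adjusted p = 0.166). The CDK inhibitor Cdkn1a stood at 260, 212 and 196 FPKM at day 4 and at 239, 208 and 220 at day 6. Cdkn1b was at 46.9, 61.1 and 54 FPKM and then at 60.3, 69.1 and 63.7, and Cdkn2a at 20.3, 22.1 and 14 and then at 16.5, 20.6 and 20. Cyclin D1 (Ccnd1) went from 216, 271 and 256 FPKM to 248, 296 and 294, and Myc from 6.15, 5.11 and 6.1 to 5.28, 5.74 and 6.46. The days overlapped in each of these 5 genes, with changes of 0.01, 0.25, 0.03, 0.18 and 0.01 and adjusted p of 0.99, 0.15, 0.963, 0.351 and 0.99. Cdkn1b passed as higher under all 4 rescalings (changes from 0.29 to 0.35, adjusted p from 0.0196 to 0.0263) and with the replicate number as a block (0.0115). Ccnd1 passed as higher under sum scaling (0.28, adjusted p = 0.0335), with short RNA genes left out (0.0491) and with the block (0.0342).

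**Figure D2:**
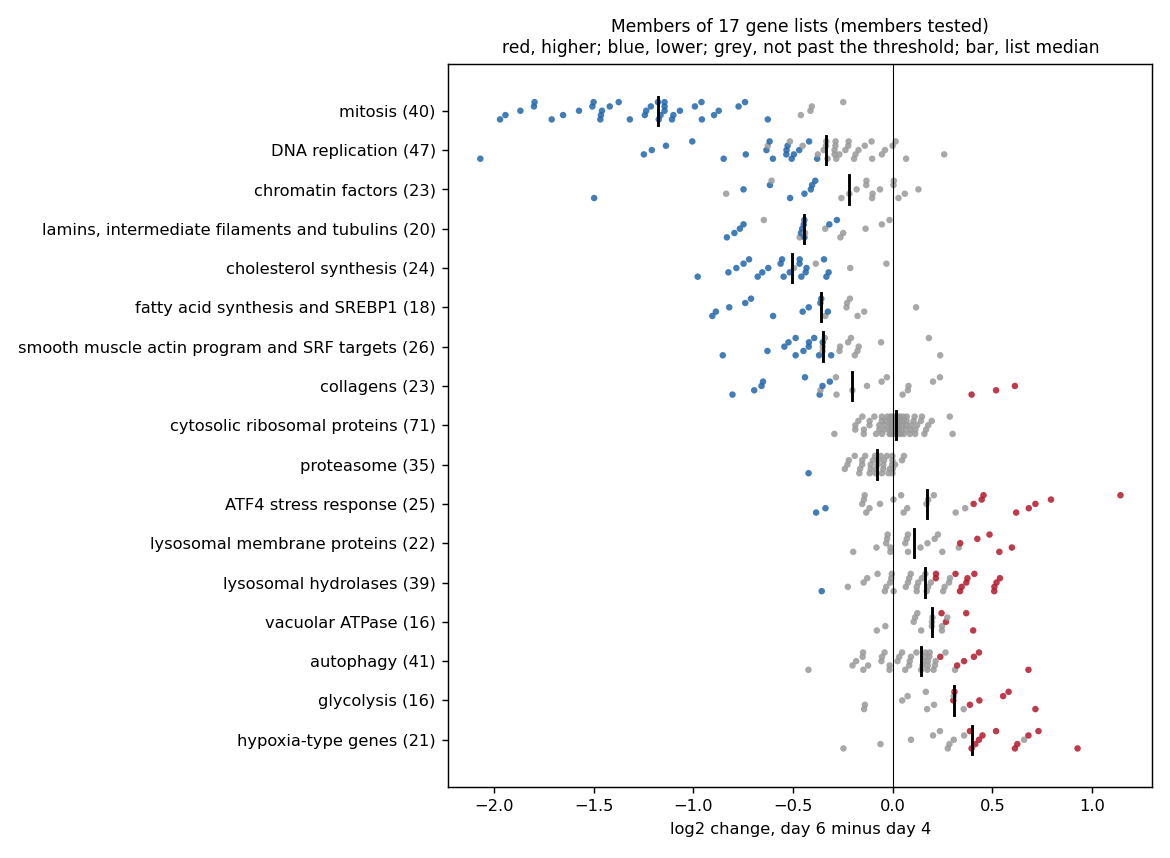
Change from day 4 to day 6 (log2, x axis) of every tested member of selected gene lists (rows, number of members in brackets); red points rose, blue points fell, grey points did not pass the test and black bars are list medians. All 40 mitosis genes and all 24 cholesterol genes lie below 0, the ribosomal proteins cluster around 0, and the hypoxia-type and glycolysis lists lie furthest above it.

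Lipid synthesis was the second large group to fall. Of 24 genes of cholesterol synthesis, 20 fell and 0 rose, all 24 changes were negative and the median was -0.51. Mevalonate decarboxylase (Mvd), which ends the mevalonate arm of the pathway, was at 252, 207 and 253 FPKM at day 4 and at 95.9, 132 and 134 at day 6 (-0.98 ± 0.13, adjusted p = 1.01e-05). Farnesyl diphosphate synthase (Fdps) went from 685, 597 and 709 FPKM to 422, 477 and 447 (-0.56 ± 0.08), and the sterol demethylase Cyp51 from 448, 422 and 498 to 300, 328 and 326 (-0.52 ± 0.07). Hmgcs1, a synthase at the start of the mevalonate arm, went from 260, 273 and 310 FPKM to 201, 205 and 217. In all 4 genes the days did not overlap. The last reductase of the pathway, Dhcr7, fell by 0.62 ± 0.08, the sterol isomerase Ebp by 0.75 ± 0.14 and the thiolase Acat2 by 0.78 ± 0.13. Srebf2, the transcription factor of the pathway, did not pass (adjusted p = 0.133). Between 15 and 20 members fell when 1 library was left out, and 17 under sum scaling.

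Of 18 genes of fatty acid synthesis, 11 fell and 0 rose, with a median change of -0.36. Acss2, which makes acetyl-CoA from acetate, was at 84.2, 78.6 and 86.8 FPKM at day 4 and at 40, 44 and 48.1 at day 6 (-0.90 ± 0.08, adjusted p = 6.05e-08). The desaturase Fads1 went from 46.3, 46.8 and 54.5 FPKM to 23.5, 26.9 and 28 (-0.89 ± 0.09), and Fads2 and Fads3 fell by 0.74 ± 0.13 and 0.71 ± 0.12. These desaturases insert double bonds into long fatty acids, and all 3 day 6 libraries lay below all 3 day 4 libraries for each. The count of falls was 7 without day 4 replicate 3, 6 without day 6 replicate 1 and 7 under sum scaling. Pcyt2, of phosphatidylethanolamine synthesis, fell by 0.69 ± 0.11. The wider list of sphingolipid and phospholipid metabolism did not fall with it. Among its 27 tested genes 1 fell (3.7%) and 2 rose (7.41%), with a median change of 0.0005. CCAAT occurred in 14 of 17 promoters of the cholesterol list (82.4%) and in 9 of 15 of the fatty acid list (60%). The sterol element searched as TCACNCCAC was found in 0 of the 17, against 79 of all 7074 (1.12%). At so low a share, 0 in 17 promoters does not show that the element is missing. The promoter of Mvd (chr19:67414925-67415224, minus strand) is shown for its 2 CCAAT matches on opposite strands, in capitals.
Mvd: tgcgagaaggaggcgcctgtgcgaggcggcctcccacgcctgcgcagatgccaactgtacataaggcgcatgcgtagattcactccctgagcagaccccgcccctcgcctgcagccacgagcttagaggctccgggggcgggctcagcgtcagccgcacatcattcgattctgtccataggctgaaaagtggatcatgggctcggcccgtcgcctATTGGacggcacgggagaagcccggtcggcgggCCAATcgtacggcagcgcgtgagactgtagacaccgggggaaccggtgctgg

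Contractile and actin genes fell as well. Of 26 genes of the smooth muscle actin program and other targets of the transcription factor SRF, 13 fell and 0 rose, with a median change of -0.35. Csrp1, an actin-binding LIM protein, was at 454, 419 and 431 FPKM at day 4 and at 275, 298 and 270 at day 6 (-0.63 ± 0.08, adjusted p = 4.57e-06). The myosin light chain Myl9 went from 1436, 1186 and 1336 FPKM to 864, 965 and 919 (-0.52 ± 0.08), and Fhl1 from 694, 618 and 733 to 455, 482 and 462 (-0.54 ± 0.07). Smooth muscle actin (Acta2) was at 6186, 6324 and 6710 FPKM and then at 3873, 4872 and 5054 (-0.49 ± 0.13, adjusted p = 0.0116). The days did not overlap in these 4 genes. The fall of Acta2 did not pass without day 4 replicate 3 (adjusted p = 0.0547), without day 6 replicate 1 (0.105) or in a fit of the 6 libraries alone (0.111). The number of falls in the list was 8 under sum scaling. Among targets of the coactivator YAP, Ankrd1 went from 56.8, 50.9 and 62.9 FPKM to 31.7, 35.5 and 32.6 and Cyr61 from 532, 452 and 579 to 315, 361 and 343, both falling, while Gadd45b rose from 277, 233 and 284 to 355, 397 and 348. Of 20 lamin, intermediate filament and tubulin genes 11 fell, 6 under sum scaling, and 0 rose. The tubulin Tubb6 fell by 0.83 ± 0.12.

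Genes of striated muscle, which these fibroblasts transcribe at some level, included the steepest called fall. Of 7 tested markers of skeletal and cardiac muscle 3 fell (42.9%, against 6.52% of all genes), 0 rose and 4 did not pass. Cardiac troponin T (Tnnt2) was at 54.4, 48.9 and 42 FPKM at day 4 and at 11.8, 10.4 and 9.75 at day 6 (-2.08 ± 0.16, adjusted p = 2.2e-09). Troponin C (Tnnc1) went from 211, 167 and 201 FPKM to 70.8, 95.2 and 65.9 (-1.32 ± 0.16). Caveolin 3 (Cav3) fell by 0.75 ± 0.10. In each gene the 3 day 6 libraries were all lower. The myogenic factor Myod1 was at 1.07, 0.728 and 2.24 FPKM and then at 1.64, 1.76 and 1.93 and did not pass (adjusted p = 0.577), and Myog, Myf5 and Myf6 were listed at 0 in all 6 libraries.

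Genes of the matrix and of secreted proteins changed in both directions. Of 23 collagens and collagen-modifying genes 8 fell and 3 rose. Among the fibrillar collagens, Col1a1 was at 2651, 2896 and 2795 FPKM at day 4 and at 1741, 1566 and 1855 at day 6 (-0.69 ± 0.13), and Col3a1 at 1982, 2015 and 2058 and then at 1264, 1326 and 1268 (-0.65 ± 0.07, adjusted p = 1.27e-06). Col18a1, of basement membranes, fell from 127, 119 and 130 FPKM to 76.2, 78.2 and 83.3. The 3 genes that rose, P4ha1, P4ha2 and Plod1, encode enzymes that hydroxylate collagen and are counted among the hypoxia-type genes too. Under sum scaling, 4 collagen genes fell. The proteoglycan versican (Vcan) went from 26.2, 30.3 and 28.2 FPKM to 12.3, 10.9 and 12.7 (-1.17 ± 0.11), the matrix protease Mmp2 from 5.02, 5.42 and 4.95 to 0.959, 1.07 and 0.625 (-1.71 ± 0.15) and the plasminogen activator Plau from 9.64, 12.5 and 10.9 to 3.96, 3.54 and 4.17 (-1.29 ± 0.14). For all 3 the day 6 libraries were lower without overlap. Of 21 factors that senescent cells secrete, 7 fell and 2 rose, Vegfa and Icam1, with only Vegfa left without any 1 of these libraries but day 4 replicate 3, since Icam1 was then lost (adjusted p from 0.0881 to 0.154). Besides Mmp2 and Plau, the chemokine Cxcl12 fell from 92, 95 and 86.2 FPKM to 55.2, 54.3 and 57.7, and Igfbp4, which binds insulin-like growth factors, from 18.5, 20.3 and 12.9 to 8.45, 8.67 and 8.18.

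Other steep falls were spread over separate functions. Aldh3a1, an aldehyde dehydrogenase, was at 9.5, 5.83 and 7.19 FPKM at day 4 and at 0.684, 1.01 and 1.44 at day 6 (-2.05 ± 0.21, adjusted p = 1.75e-07). Tsc22d3, a glucocorticoid-responsive gene also driven by FoxO factors, went from 84.1, 63 and 86.6 FPKM to 33.2, 33.1 and 31.3 (-1.22 ± 0.09). Eva1b went from 8.02, 7.82 and 7.4 FPKM to 2.71, 3.75 and 1.62 (-1.28 ± 0.28). The splicing protein gene Snrpa fell from 32.9, 26.7 and 29.6 FPKM to 14.5, 15.1 and 13.1. It was 1 of 4 falls among 47 splicing factors (8.51%, near the 6.52% of all genes), of which 1 fell under sum scaling. The days did not overlap in Aldh3a1, Tsc22d3, Eva1b or Snrpa, but the largest falls were picked only among genes without overlap. The immediate early gene Klf4 fell by 0.79 ± 0.14 and the quinone reductase Nqo1 from 452, 371 and 481 FPKM to 268, 327 and 293.

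**Figure D3:**
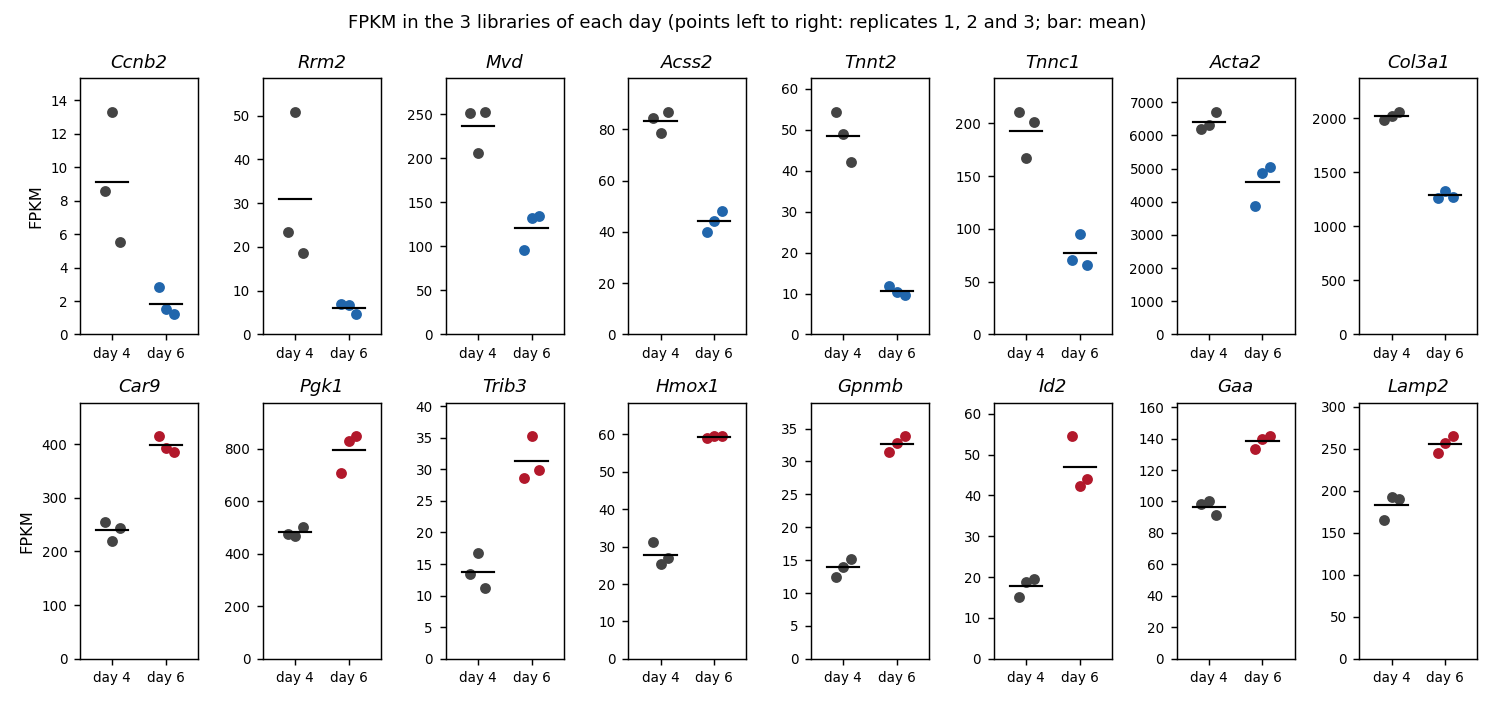
FPKM (y axis, from 0) of 16 genes in the 3 day 4 libraries (grey) and the 3 day 6 libraries (blue where the gene fell, red where it rose), with bars at the means. In each panel the days do not overlap, and Ccnb2 and Rrm2 show day 4 replicate 2 far above the other day 4 libraries.

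Genes that cells switch on when oxygen is short rose as a group. Of 21 such genes 11 rose and 0 fell, with a median change of 0.40, and 11 or 12 rose when 1 library was left out. The carbonic anhydrase Car9, which handles acid at the cell surface, was at 255, 220 and 244 FPKM at day 4 and at 415, 392 and 385 at day 6 (0.73 ± 0.09, adjusted p = 3.41e-06). Pdk1, the kinase that holds pyruvate back from mitochondria, went from 9.91, 15.9 and 14.5 FPKM to 21.9, 29.7 and 27 (0.93 ± 0.15), and the mitophagy receptor Bnip3 from 53.4, 54.8 and 55.4 to 87.9, 81.5 and 95.1 (0.68 ± 0.08). The growth factor Vegfa rose from 272, 267 and 269 FPKM to 354, 359 and 366, the prolyl hydroxylase P4ha2 from 56.9, 56.3 and 54.2 to 88.5, 84.1 and 85, and the demethylase Kdm3a by 0.45 ± 0.10. The days did not overlap in any of these genes. The labels give no change of oxygen.

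Of 16 glycolysis genes 7 rose and 0 fell, with a median change of 0.31. Phosphoglycerate kinase (Pgk1) was at 476, 468 and 503 FPKM at day 4 and at 706, 829 and 848 at day 6 (0.72 ± 0.08, adjusted p = 4.84e-07). The phosphofructokinase Pfkl went from 33, 36.6 and 37.3 FPKM to 46, 56.8 and 59.4 (0.58 ± 0.11), the isomerase Gpi from 239, 226 and 232 to 286, 328 and 330 (0.43 ± 0.07) and Pgam1 from 390, 372 and 404 to 460, 488 and 499 (0.31 ± 0.06). For these 4 genes replicate 1 was the lowest day 6 library and still lay above all of day 4. Gapdh was at 2132, 1940 and 2101 FPKM and then at 2145, 2464 and 2355 and did not pass (adjusted p = 0.185), though it did under sum scaling (0.0466) and without replicate 1 of every day (0.0266). Of 54 tested genes of the respiratory chain 0 rose and 1 fell, Cyc1, which lost its call under all 4 rescalings (adjusted p from 0.099 to 0.337) and without replicate 1 or 3 of either day (from 0.0649 to 0.206).

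The factor HIF binds the letters ACGTG in a hypoxia response element. They occurred in 13 of 16 promoters of the hypoxia-type list (81.2%) and 7 of 12 of the glycolysis list (58.3%) against 1967 of all 7074 (27.8%). Of all genes that rose 86 of 237 promoters held them (36.3%), and of all that fell 107 of 450 (23.8%). The promoters of Car9 (chr5:62558774-62559073, plus strand) and Pdk1 (chr3:77113264-77113563, plus strand) are shown because both genes rose steeply and hold the letters in this window, where capitals mark ACGTG or its reverse complement.
Car9: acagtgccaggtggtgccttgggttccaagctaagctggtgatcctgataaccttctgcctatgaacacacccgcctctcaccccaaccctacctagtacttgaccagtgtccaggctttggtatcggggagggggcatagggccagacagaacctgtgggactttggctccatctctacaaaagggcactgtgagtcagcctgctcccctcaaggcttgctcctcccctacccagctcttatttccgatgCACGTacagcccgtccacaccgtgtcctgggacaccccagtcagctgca
Pdk1: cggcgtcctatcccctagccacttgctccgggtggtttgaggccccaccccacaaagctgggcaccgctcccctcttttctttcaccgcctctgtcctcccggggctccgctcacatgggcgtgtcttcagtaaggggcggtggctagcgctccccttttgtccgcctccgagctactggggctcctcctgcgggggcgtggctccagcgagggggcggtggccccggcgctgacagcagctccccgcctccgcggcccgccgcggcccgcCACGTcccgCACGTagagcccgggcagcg
Car9 holds 1 match and Pdk1 holds 2.

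Lysosomal genes rose in part. The lysosome breaks down proteins, sugars and lipids in an acid interior that the vacuolar ATPase maintains, and the series title names it as the switch of quiescence depth. Of 39 lysosomal hydrolases 12 rose and 1 fell, with a median change of 0.16. The fall was that of the acid lipase Lipa (-0.36), a call lost under sum scaling (adjusted p = 0.0753). The glucosidase Gaa was at 98.5, 100 and 91.5 FPKM at day 4 and at 133, 140 and 142 at day 6 (0.51 ± 0.07, adjusted p = 2e-05). The peptidase Dpp7 went from 67.9, 56 and 56.6 FPKM to 84.3, 86.9 and 86.1 (0.51 ± 0.08), the galactosidase Gla from 24.6, 26.6 and 26.2 to 36.3, 43.6 and 33 (0.52 ± 0.09) and the mannosidase Man2b1 from 54.3, 52.7 and 51.2 to 67.2, 69.6 and 74.5 (0.41 ± 0.07). The days did not overlap in these 4 genes. Not every hydrolase passed: cathepsin D (Ctsd) was at 666, 606 and 639 FPKM and then at 675, 680 and 658, and beta-galactosidase (Glb1), used as a marker of senescence, at 52, 45 and 48.2 and then at 52.9, 49.8 and 51.9 (adjusted p = 0.514 and 0.539). The number of hydrolases that rose was 7 without day 4 replicate 1 and 8 without day 6 replicate 2 or 3.

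Of 22 lysosomal membrane proteins 5 rose and 0 fell. Lamp2, a coat protein of the lysosome, was at 165, 193 and 190 FPKM at day 4 and at 245, 257 and 265 at day 6 (0.49 ± 0.11, adjusted p = 0.00325). The cystine exporter Ctns went from 6.64, 6.55 and 6.41 FPKM to 10.2, 10.2 and 10.7 (0.60 ± 0.13), the calcium channel Mcoln1 from 46.8, 45.2 and 45.3 to 59.1, 61.4 and 64.9 (0.42 ± 0.09) and the cholesterol exporter Npc1 from 12.1, 15.3 and 15.2 to 18.9, 19.8 and 24.4 (0.53 ± 0.11). In all 4 the day 6 libraries lay above those of day 4. Lamp1 was also higher in each day 6 library (714, 675 and 625 FPKM against 619, 534 and 543) but did not pass (0.25 ± 0.08, adjusted p = 0.062). Lamp1 did pass with the replicate number as a block (adjusted p = 0.00176), without replicate 1 of every day (0.0107) and without day 4 replicate 1 (0.0307). Of 16 vacuolar ATPase genes 4 rose and 0 fell, with 1 rise left without day 4 replicate 2, 2 without day 6 replicate 1 or replicate 2, and 7 rises under sum scaling. The accessory subunit Atp6ap1 rose from 175, 158 and 161 FPKM to 231, 213 and 210 under each of them. Tfeb, the transcription factor of lysosomal genes, was at 7.08, 8.24 and 4.95 FPKM and then at 5.18, 6.22 and 5.79 (adjusted p = 0.638). Of 41 autophagy genes 6 rose and 0 fell, with a median change of 0.14. Bnip3 and Bnip3l target mitochondria, and Sqstm1, a cargo receptor, went from 321, 291 and 306 FPKM to 387, 414 and 376. Gabarapl1, which joins the autophagosome membrane, went from 47.1, 47.7 and 47.4 to 61.1, 64.4 and 64. The palindrome CACGTG, which Tfeb and its relatives read and which contains ACGTG, occurred in 7 of 27 promoters of hydrolases (25.9%) and 5 of 20 of membrane proteins (25%) against 719 of all 7074 (10.2%). Of all genes that rose 38 of 237 promoters held it (16%), and of all that fell 35 of 450 (7.78%).

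Stress-response genes driven by the transcription factor ATF4 rose in part. Of 25 tested, 8 rose and 2 fell, with a median change of 0.17. The pseudokinase Trib3 was at 13.4, 16.7 and 11.1 FPKM at day 4 and at 28.6, 35.2 and 30 at day 6 (1.14 ± 0.12, adjusted p = 3.99e-07). The transcription factor Ddit3, known as CHOP, went from 36.6, 29.2 and 35.2 FPKM to 59, 54.3 and 63.5 (0.79 ± 0.12). Slc3a2, the heavy chain of amino acid exchangers, went from 99.7, 103 and 99.8 FPKM to 146, 157 and 164 (0.62 ± 0.06), and asparagine synthetase (Asns) from 17.4, 14.7 and 13.2 to 20.8, 20.8 and 19 (0.41 ± 0.08). The days did not overlap in these 4 genes. The 2 that fell were Slc7a5 and Slc1a4, amino acid carriers, and both calls were lost under sum scaling (adjusted p = 0.0999 and 0.237) and without day 4 replicate 3 (0.0543 and 0.119). Slc7a5 also lost its call without day 6 replicate 1 (0.129), and Slc1a4 without day 6 replicate 2 or 3 (0.103 and 0.0659). Atf4 itself was at 411, 363 and 402 FPKM and then at 449, 468 and 439 and did not pass (adjusted p = 0.0906), though it did after quantile normalization (0.0125) and scaling by the upper quartile (0.0454). Of 28 chaperones and other genes of the unfolded protein response 7 rose and 1, Pdia6, fell, and 4 rose without day 6 replicate 1 or replicate 2. The Pdia6 call was lost without day 4 replicate 3 or day 6 replicate 1 or 3 (adjusted p = 0.0701, 0.0666 and 0.0789). The chaperone Hspa5 rose from 290, 294 and 310 FPKM to 368, 432 and 445 and Herpud1 from 54.9, 51.7 and 47.2 to 75.1, 80.6 and 75.8. The mean log2(FPKM + 1) of the chaperone list was 6.24 at day 3, 6.04 at day 4, 6.20 at day 6 and 6.12 at day 8.

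The element read by ATF4 with its partners, searched as TGATGNAA, occurred in 4 of 21 promoters of the ATF4 list (19%) against 137 of all 7074 (1.94%). Of all genes that rose 9 of 237 promoters held it (3.8%), and of all that fell 12 of 450 (2.67%). The promoter of Trib3 (chr3:161275484-161275783, minus strand) is shown for its match, which is on the opposite strand and in capitals.
Trib3: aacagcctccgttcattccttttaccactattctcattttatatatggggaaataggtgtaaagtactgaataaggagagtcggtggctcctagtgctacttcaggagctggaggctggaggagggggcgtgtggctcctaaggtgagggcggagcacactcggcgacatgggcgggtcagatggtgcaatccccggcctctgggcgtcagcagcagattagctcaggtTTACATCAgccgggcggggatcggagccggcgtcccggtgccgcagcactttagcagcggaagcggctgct

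The steepest rises of single genes came from several functions. Car3, a cytosolic carbonic anhydrase, was at 10.9, 10.8 and 10.6 FPKM at day 4 and at 32.4, 37.2 and 29.4 at day 6 (1.52 ± 0.14, adjusted p = 4.92e-08). Id2, an inhibitor of helix-loop-helix factors and a target of BMP signalling, went from 15, 18.7 and 19.6 FPKM to 54.5, 42.4 and 44 (1.35 ± 0.14), and Id3 from 126, 119 and 112 to 190, 194 and 159 (0.59 ± 0.11). The ferritin receptor Scara5 went from 5.59, 7.93 and 5.27 FPKM to 18.6, 16.6 and 16.7 (1.35 ± 0.12). All day 6 values in these genes were higher than all day 4 values, but the largest rises were picked only among genes without overlap. The matrix protein Smoc1 rose from 15.9, 22.2 and 17 FPKM to 51.2, 47 and 43.9, the hydrogen peroxide-producing oxidase Nox4 from 8.71, 9.24 and 12.7 to 28.1, 26.4 and 25.2, and the phospholipase receptor Pla2r1 from 3.73, 4.2 and 3.45 to 10.5, 10.4 and 9.49. Bcl2l11, the cell death gene known as Bim, rose from 3.75, 4.02 and 3.67 FPKM to 7.13, 11.1 and 11.9 (1.17 ± 0.24). The histone genes Hist1h2an (2.22, 6.53 and 5.6 FPKM to 12.8, 21.1 and 18.7) and Hist2h2aa3 (71, 57 and 75.8 to 142, 189 and 145) also rose. Histone genes come in near-identical copies between which reads could be split, so these 2 are uncertain. The Hist1h2an call was lost with a pseudocount of 0.1 (adjusted p = 0.0871) and without replicate 1 of every day (0.0529).

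Iron and heme genes rose without a fall among them, 5 of 19. Heme oxygenase (Hmox1), which frees iron from heme, was at 31.3, 25.3 and 26.9 FPKM at day 4 and at 59, 59.5 and 59.5 at day 6 (1.07 ± 0.11, adjusted p = 1.94e-07). The ferritin light chain Ftl1, which stores iron, went from 5000, 3700 and 4193 FPKM to 6801, 6841 and 6062 (0.62 ± 0.12), and the ferroxidase Cp from 4.3, 4.55 and 5.34 to 6.92, 8.11 and 7.19 (0.56 ± 0.12). The days did not overlap in any of them. A pair of genes known from pigment cells rose as well. Gpnmb, a glycoprotein of melanosomes and lysosomes, went from 12.5, 14 and 15.2 FPKM to 31.4, 32.8 and 33.9 (1.18 ± 0.10, adjusted p = 8.01e-09), and Mlana, a melanosome protein, from 0.172, 0.369 and 0 to 6.26, 4.36 and 7.2 (2.54 ± 0.18, adjusted p = 4.12e-10). The pigment enzyme Tyr was listed at 0 in all 6 libraries and Tyrp1 under 1 FPKM, and their regulator Mitf did not pass (adjusted p = 0.676).

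Several gene groups showed few or no calls, where 3.39% of all genes rose and 6.52% fell. None of 71 cytosolic ribosomal proteins rose or fell, with a median change of 0.01 and all changes between -0.29 and 0.30, nor did any of 30 Rab GTPases. Under sum scaling, 2 ribosomal proteins rose. None of 36 translation initiation genes was called, but 6 rose under that scaling and 1 without day 4 replicate 2. Of 54 mitochondrial ribosomal proteins, 35 proteasome genes, 22 nuclear pore genes and 21 interferon response genes 0 rose and 1 each fell, namely Mrps11, Psmc3, Nup85 and Stat2 (1.85%, 2.86%, 4.55% and 4.76%). The shares of nuclear pore and interferon genes were near that of all genes. The fall of Psmc3 held in every setting tried, while the other 3 were lost under sum scaling (adjusted p = 0.132, 0.105 and 0.263) and without day 4 replicate 1 (Mrps11, 0.055, and Nup85, 0.104) or day 4 replicate 3 (Stat2, 0.141). Nup85 was also lost without replicate 2 of either day or day 6 replicate 3, and Stat2 without replicate 1 or 3 of day 6, with values from 0.0645 to 0.111.

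Marker genes of other cell types were looked at in the same libraries. An exact 0 in this table can be a gene that was not quantified: the fibroblast collagen Col1a2 was listed at 0 in all 6 libraries beside abundant Col1a1, so a 0 gives no level. Of 12 macrophage markers 5 were listed at 0 in all 6 libraries, and the other 7 were under 1 FPKM in each. Of 10 epithelial markers 9 were listed at 0, Krt18 among them, and Krt8 was at 23.3 to 29.2 FPKM. Of 10 endothelial markers 6 were listed at 0 and 3 more were under 1 FPKM, of 11 adipocyte markers 7 and 3, and of 12 neural and glial markers 5 and 4. Of the 3 neural and glial markers tested 1 rose and 0 fell. Map2, of neurons, rose from 1.42, 3.85 and 2.23 FPKM to 8.12, 5.7 and 8.1. Another changed by -0.65, with every day 6 library below every day 4 library, and did not pass. The summed FPKM of 19 muscle markers was 327.2 to 399.6 at day 4 and 154.3 to 185.9 at day 6, and its part in other changes was not tested. Of 14 fibroblast markers Thy1, Dcn and Fap stayed under 1 FPKM, while Col1a1, Col3a1, Pdgfrb, Fn1 and Vim were abundant. The sum of the fibroblast list was 19470 to 23420 at day 4 and 16220 to 18690 at day 6.

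Whether the step differed from the one before it was tested as the change from day 4 to day 6 minus the change from day 2 to day 4. The difference was positive for 460 genes (5.15%) and negative for 613 (6.86%), and without day 4 replicate 3 these counts were 263 and 403. Because day 4 enters both changes, the day 4 libraries weigh most in this test. Day 3 lies within the earlier interval, and its mean did not enter the test. The mitosis list turned: 34 of 40 genes differed downward, with a median change of 0.66 from day 2 to day 4 and of -1.18 from day 4 to day 6. Much of the first value rested on day 4 replicate 2, without which 25 of the 40 differed downward and the medians were 0.35 and -0.91. The mean of the list was 1.78 at day 2, 2.22 at day 3 and 2.245, 3.051 and 2.027 in the day 4 libraries. Day 4 replicate 3 thus lay below the day 3 mean. Ccnb2 averaged 1.85 FPKM at day 2 and 5.35 at day 3 before the day 4 values above, and its difference was -3.57 (adjusted p = 1.39e-05). Rrm2 (-2.90) and Kif20a (-2.65) came next. The most negative difference among genes of at least 5 FPKM was that of Lce1m, a cornified envelope gene, which averaged 6.25 FPKM at day 2, stood at 192, 94.3 and 155 at day 4 and at 70.4, 72.6 and 66.4 at day 6 (-5.31, adjusted p = 1.73e-07), although its fall over the step (-1.01 ± 0.31, adjusted p = 0.0405) was lost without any 1 of day 4 replicates 1 and 3 and of the day 6 libraries (adjusted p from 0.0845 to 0.197) and under sum scaling (0.103).

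The actin and SRF list turned as well, with 18 of 26 genes differing downward and 2 upward. Its median change was 0.58 from day 2 to day 4 and -0.35 afterwards. Most of its earlier rise was reached by day 3, with a mean of 7.92 at day 2, 8.36 at day 3 and 8.42 at day 4. Acta2 averaged 3430 FPKM at day 2 and Myl9 627, below both day 4 and day 6, and the growth factor gene Tgfb3 averaged 327 at day 2, stood at 1288, 1110 and 1369 at day 4 and at 696, 823 and 831 at day 6. Of the cholesterol genes 13 of 24 differed downward and 0 upward, and 4 downward without day 4 replicate 3. Ribosomal protein genes had a median change of -0.56 from day 2 to day 4 and of 0.01 from day 4 to day 6. Most of their fall was also reached by day 3, with a mean of 10.68 at day 2, 10.24 at day 3 and 10.14 at day 4. Of their 71 genes 18 differed upward, a count that was 9 without day 4 replicate 2 or replicate 3 and 35 under sum scaling. Of the ATF4 list 15 of 25 differed upward and 0 downward, with a median of -0.25 before and 0.17 after, and 8 upward without day 4 replicate 3. Trib3 averaged 24.4 FPKM at day 2, and its difference was 1.95 (adjusted p = 4.76e-07). The most positive differences among genes of at least 5 FPKM were those of Nrep (3.44), Bcl2l11 (2.86), the matrix protein Postn (2.12) and the glutathione transferase Mgst3 (2.09). For Nrep the day 2 mean was 96.8 FPKM, the day 4 values 13.3, 19.7 and 10.9 and the day 6 values 25.8, 26.7 and 23.6, and its rise over the step (0.79 ± 0.25, adjusted p = 0.0406) was lost without any 1 of these libraries but day 4 replicate 2 (adjusted p from 0.0729 to 0.21). Postn rose by 0.39 ± 0.11 from day 4 to day 6 (adjusted p = 0.0218), which did not pass without any 1 of day 4 replicates 1 and 2 and day 6 replicates 2 and 3, where its adjusted p ran from 0.059 to 0.12, and Mgst3 did not pass over the step (adjusted p = 0.384), while its difference was lost without day 4 replicate 3 (adjusted p = 0.151). Cdkn2a averaged 56.5 FPKM at day 2 and 18.8 at day 4, and its difference was 1.57 (adjusted p = 0.00496, and 0.0836 without day 4 replicate 3). The Notch target Hes1 averaged 39 and 13.8 FPKM, and its difference was 1.05 (adjusted p = 0.0112, and 0.072 without that library). Neither passed over the step itself.

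The hypoxia-type list did not turn. Its median change was 0.66 from day 2 to day 4 and 0.40 from day 4 to day 6, with 2 of 21 genes differing upward and 6 downward, the latter being 3 without day 4 replicate 2. Car9 averaged 74.4 FPKM at day 2, and its difference of -0.94 (adjusted p = 0.000114) is that of a smaller log2 rise in the second interval. The vacuolar ATPase list had no gene whose difference passed the test in either direction, with medians of 0.33 and 0.20.

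**Figure D4:**
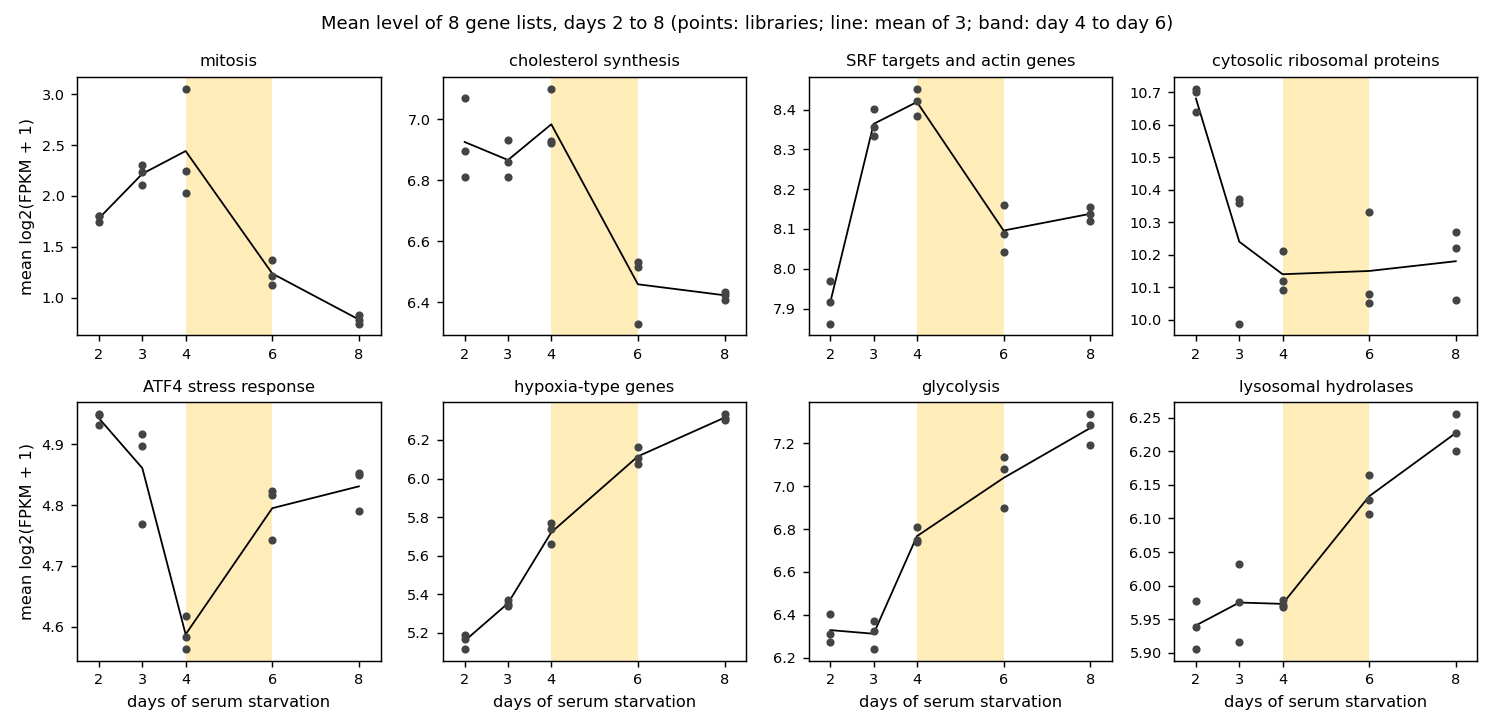
Mean log2(FPKM + 1) of 8 gene lists (y axis, its range differing between panels) against days of serum starvation (x axis, days 2 to 8), with a point for each library, a line through the means of 3 and a band over the step from day 4 to day 6. The mitosis list averaged 1.78 at day 2, 2.44 at day 4 and 1.24 at day 6, the actin list 7.92, 8.42 and 8.10, and the hypoxia-type list 5.16, 5.72 and 6.12.

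The step after it, from day 6 to day 8, was compared in the same way. It was more positive than the step from day 4 to day 6 for 43 genes (0.481%) and more negative for 23 (0.257%). These counts moved with single libraries: 70 and 19 without day 4 replicate 2, 20 and 10 without day 4 replicate 3, 14 and 8, 16 and 6, and 20 and 9 without day 6 replicates 1, 2 and 3, and 23 and 14 without day 8 replicate 3. Among genes of at least 5 FPKM the most positive were Tnnt2 (1.40), Nrn1 (1.34), Spp1 (1.24) and Myh1 (1.22). Tnnt2 averaged 6.31 FPKM at day 8 after its fall, while Nrn1, a neurite growth gene, went from 33.7, 36.4 and 40 FPKM at day 4 to 21.2, 27.5 and 21.7 at day 6 and averaged 38.8 at day 8. Osteopontin (Spp1) went from 84.6, 83.3 and 73.2 FPKM to 51.4, 57 and 55.7 and averaged 90.2 at day 8, its fall over the step being lost under sum scaling (adjusted p = 0.0517). The myosin gene Myh1 was at 124, 110 and 136 FPKM and then at 78.8, 91.1 and 111, did not pass over the step (adjusted p = 0.093, and 0.0424 without day 6 replicate 3), and averaged 164 at day 8. The most negative were Bcl2l11 (-1.77), Txnip (-1.53), Scara5 (-1.39) and Trib3 (-1.24). Txnip, which binds thioredoxin, was at 54, 63.7 and 48.1 FPKM and then at 80.9, 68.9 and 72, did not pass over the step (adjusted p = 0.193), and averaged 33.6 at day 8. Scara5 and Trib3 averaged 16.8 and 29.1 FPKM at day 8, near their day 6 values. The differences of Nrn1 and Spp1 passed with any 1 library left out, and so did that of Scara5. That of Trib3 was lost without day 6 replicate 2 (adjusted p = 0.0591), and that of Tnnt2 without day 6 replicate 2 or 3 (0.0673 and 0.0951). That of Myh1 was lost without day 4 replicate 3 or day 6 replicate 1 or 2 (from 0.0576 to 0.242), that of Txnip without day 4 replicate 3 or any day 6 library (from 0.0576 to 0.176), and that of Bcl2l11 without any 1 library but day 6 replicate 1 (from 0.0508 to 0.292). Under sum scaling those of Tnnt2, Myh1 and Bcl2l11 were lost (0.104, 0.0595 and 0.063). The mitosis list had 2 genes with a more positive later step, and its median change from day 6 to day 8 was -0.46.

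Days 3 and 8, which lie either side of the step and share no library with it, gave a second reading. Their interval also holds the changes before and after the step, so a gene that drifted throughout would appear in both. The spread of each gene was taken from all 30 libraries in both tests. Between them 1021 genes were higher at day 8 (11.4%) and 1103 lower (12.3%). Of the 303 genes that rose from day 4 to day 6, 241 were also higher at day 8 than at day 3 (79.5% of them, and 23.6% of the 1021), 4 were lower, and 285 had a positive difference. Of the 583 that fell, 439 were also lower (75.3% of them, and 39.8% of the 1103), 2 were higher, and 563 had a negative difference. All 40 mitosis genes but 1 were lower at day 8, with a median of -1.51, and so were 16 of 24 cholesterol genes (-0.48) and 16 of 26 actin genes (-0.31). Of the hypoxia-type genes 18 of 21 were higher (0.86), of the lysosomal hydrolases 20 of 39 were higher and 3 lower (0.28), and of the vacuolar ATPase 14 of 16 were higher (0.49). The ATF4 list split, with 6 of 25 higher and 8 lower (median -0.03), Trib3 being higher by 0.73 ± 0.12 and Asns not passing (-0.16, adjusted p = 0.168). The chaperone and unfolded protein response list went mostly against its step, with 2 of 28 higher and 11 lower (median -0.11). Bcl2l11, at 4.45 FPKM on average at day 3 and 6.19 at day 8, did not pass (0.39, adjusted p = 0.281).

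**Figure D5:**
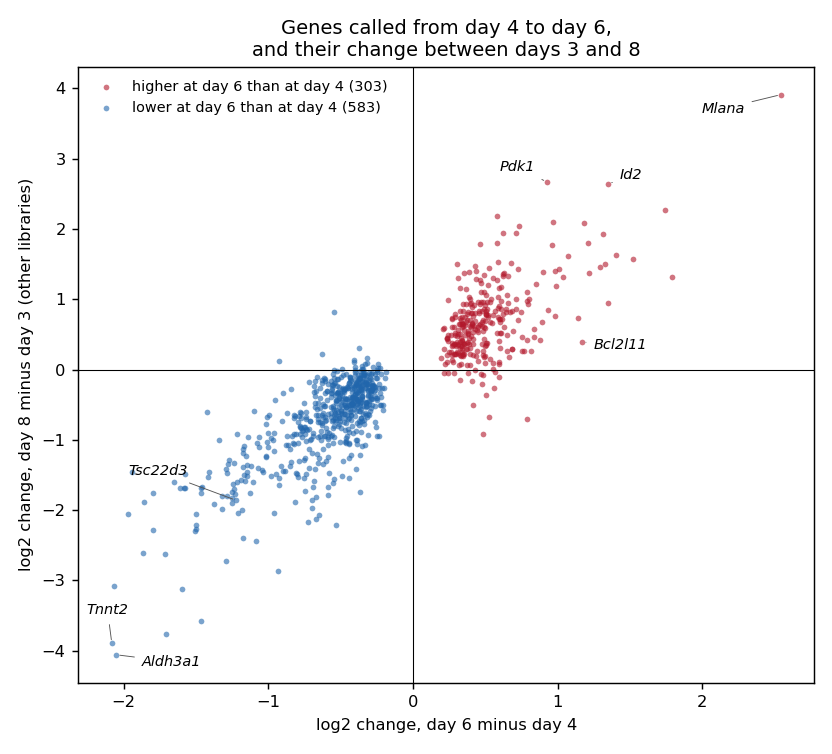
For the 303 genes that rose (red) and the 583 that fell (blue) from day 4 to day 6, the log2 change over that step (x axis) against the log2 difference between day 8 and day 3 in other libraries (y axis). Of the risen genes 285 lie above 0 on the y axis, and of the fallen genes 563 lie below it.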

How the data were processed

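Total RNA of the REF line was sequenced in 30 libraries. The deposited values are FPKM per gene symbol, made by the authors. The submitters' processing notes name the rn6 build, TopHat2 2.1.1, Cuffnorm 2.2.1 and Cufflinks. Scaling across libraries, annotation and filters are not given in the sources used here, and read depth is unknown because FPKM keeps no counts, so no counting interval can be given. Genes with a mean of at least 1 FPKM over all libraries (8940 of 17353) were fitted as log2(FPKM + 1) with limma 3.58.1 in R 4.3.3. The fit held 10 group means over 30 libraries with a mean-variance trend and 20 residual degrees of freedom, and the contrasts were day 6 against day 4, each difference from a neighbouring step, and day 8 against day 3. P-values were adjusted by Benjamini and Hochberg over all 8940 genes, with a threshold of 0.05. The labels call the replicates biological without saying how they were grown, so p-values measure the spread between these libraries.

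On simulated data with 200 changed genes in 10 runs, the step contrast recovered 56.1% of changes of 0.5 and 93.2% of changes of 1 on the log2 scale, with 4.7% false calls. The contrast with the step before recovered 11.8% and 59.1%, with 6.3% false calls, and that with the step after 12% and 63.1%, with 4.1%. Many differences between steps would thus be missed, and a gene not called there is not shown to have kept its pace. Named genes were the 12 largest rises and falls of at least 5 FPKM whose days did not overlap, up to 4 members of smallest p in each list, a fixed set of regulators and the 4 extremes of each difference between steps. For the largest rises and falls the lack of overlap thus followed from the choice and is no further support. Acat2, Asns, Atf4, Ebp, Fn1, Gabarapl1, Gapdh, Gla, Hmgcs1, Icam1, Kdm3a, Lipa, Mir3120, P4ha1, Pcna, Pdia6, Plod1, Srebf2 and Vegfa lie outside that rule and were named after their values were seen. Some genes are not reported here. Members and gene lists were chosen with earlier results of these data known. Promoters came from RefSeq (GRCr8), with 399 of the matches made by synonym. Alternatives were other pseudocounts, filters and scalings, no trend, a replicate block, the 6 libraries alone and each library left out.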

Additional observations from a re-analysis of the deposited data

Results flagged for a closer look

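The step from day 4 to day 6 differed from the steps on either side of it by a test of the difference itself, limma's contrast of the 2 steps. Against the step from day 2 to day 4 it was more positive for 460 genes and more negative for 613. The step from day 6 to day 8 was more positive than it for 43 genes and more negative for 23. Each pair of steps shares the 3 libraries of the day between them, day 4 or day 6, so those libraries enter both changes.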

How the results depend on the processing

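Of the 117 genes named that passed the test, 94 kept their call in all 18 settings tried for them. Rises numbered 501 under sum scaling, 466 by the upper quartile and 112 in a fit of the 6 libraries alone, and falls 300 under sum scaling and 219 in the 6 libraries alone. Calls lost in the fit of the 6 libraries alone include those of Mki67 (adjusted p = 0.0598), Acta2 (0.111), Asns (0.1) and Ftl1 (0.0609). Those of Npc1 (0.0662), Pgam1 (0.0733), Cp (0.0518) and Sqstm1 (0.0515) were lost there too. Leaving out 1 library gave 203 to 241 rises and 407 to 508 falls. Steps more positive than the one before numbered 263 to 446 and more negative ones 403 to 610 with 1 library left out, both lowest without day 4 replicate 3. Later steps more positive numbered 13 under sum scaling, 26 with short RNA genes left out, 5 without replicate 1 of every day, and 14 to 70 with 1 library left out. Later steps more negative numbered 4 without replicate 1 of every day and 6 to 19 with 1 library left out. Days 3 and 8 gave 792 to 937 higher and 894 to 1028 lower genes with 1 library left out. The cause of these shifts was not tested, beyond there being fewer libraries.

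With 1 library left out, or replicate 1 of every day, the median of TGF-beta genes ran from -0.0259 to 0.207, and among genes that did not pass the change of Cdkn1a ran from -0.0806 to 0.122, Cdkn2a from -0.154 to 0.193, Myc from -0.0646 to 0.108 and Krt8 from -0.104 to 0.0545. Medians turned for splicing factors (0.052 under sum scaling, 0.0133 without short RNA genes), proteasome genes (0.0191 under sum scaling) and heat shock genes (0.0535 under sum scaling, 0.00822 after quantile normalization, 0.015 without short RNA genes). Krt8 turned to 0.0423 under sum scaling and 0.00411 without short RNA genes, and Myc to -0.00189 after quantile normalization.

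Same-numbered replicates of days 4 and 6 deviated together with correlations of 0.244, -0.0593 and 0.194, so not every pair deviated together and the numbers were not treated as pairs. Replicates 1 and 3 of day 4 correlated best with their own number at day 6 and replicate 2 did not. A part shared by number is still visible: replicate 1 had the most genes above 0 FPKM in 10 of 10 groups (10361 to 10580, against 9875 to 10192 in replicates 2 and 3). With the replicate block 481 genes rose and 781 fell, and later steps were more positive for 94 and more negative for 39.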
